A study of Mus musculus with 12 samples.

Results

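The WAVE complex genes were examined in the tibialis anterior, a hindlimb muscle, of 6 WT (C57Bl/6) and 6 mdx/mTR males at an age of 4 months. The members are the 10 rows of the count table whose symbols are Cyfip1, Cyfip2, Nckap1, Nckap1l, Wasf1, Wasf2, Wasf3, Abi1, Abi2 and Brk1, out of 24421 entries. The mdx allele disrupts Dmd, which encodes dystrophin, and mTR denotes loss of the telomerase RNA gene; the WT mice carry neither, so the effects of the alleles cannot be told apart. The list was drawn up around Cyfip2, which was already known to have one of the largest rises of this same comparison. The values of the members between the groups are therefore a description, given without a p-value for any member.

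The WAVE complex is an actin regulator built from a Wasf, a Cyfip, a Nckap1, an Abi and a Brk1 subunit. At rest the complex holds the active tail of the Wasf protein shut. Active Rac binds the Cyfip subunit and frees that tail, which then switches on the Arp2/3 complex and starts branched actin filaments at the cell edge. Several positions can be filled by paralogs: Nckap1l (also called Hem1) is the form of blood cells, Wasf1 and Wasf3 are best known from the nervous system, and Cyfip1 and Cyfip2 both bind Rac and the fragile X protein FMRP. Rac and branched actin are known to take part in the fusion of myoblasts.

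The WT libraries held 36903560 to 40981012 counts and the mdx/mTR libraries 35136327 to 60330410, and levels are given as CPM, the usual counts-per-million scale with TMM-scaled libraries. Dmd, the gene disrupted by the mdx allele, stood at 228 to 244 CPM in WT and at 35.2 to 56.4 CPM in mdx/mTR. The 7 mature fibre markers summed to 149850 to 169420 CPM in WT and to 111032 to 151463 CPM in mdx/mTR. They include Acta1, Ckm and Myh4, and their sum was by far the highest of the marker sums in every library. Of the 7, only Myh4 passed an edgeR adjusted p of 0.05, against 48.3% of all genes tested. Myh4 was lower, with means of 66076 and 43138 CPM in WT and mdx/mTR, and the other 6 did not pass. The library of mdx/mTR replicate 5 had the highest sums of blood cell, macrophage, myogenic and fibroblast markers and the lowest sum of mature fibre markers. In whole muscle, fewer cells of a type and less RNA per cell cannot be told apart.

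The Cyfip paralogs are the pair whose balance differed most between the groups, so the stretch around their longest common run of coding sequence is shown. It lies at coding bases 991 to 1080 in both genes and joins exons 10 and 11 of the GENCODE M21 transcripts, within chr7:55886816-55887909 on the plus strand for Cyfip1 and chr11:46270582-46272610 on the minus strand for Cyfip2 (GRCm38, introns left out of the sequence). Capitals mark the 20 of 90 bases at which the paralogs differ, written 5′ to 3′.
Cyfip1: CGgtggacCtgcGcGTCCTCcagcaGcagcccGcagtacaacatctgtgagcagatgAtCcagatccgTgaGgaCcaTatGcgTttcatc
Cyfip2: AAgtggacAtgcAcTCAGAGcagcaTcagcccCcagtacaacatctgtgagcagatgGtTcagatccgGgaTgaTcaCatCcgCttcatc
The coding sequences have the same length, 3759 bases, and are identical at 77.8% of 3756 aligned bases, but the longest run they share is 24 bases. Read on the same strand, no stretch of 50 bases in the longest coding transcript of either gene occurs in a transcript of another gene. The other paralogs were further apart, with 63.4% identity for Nckap1 and Nckap1l, 66.0% to 66.7% among the Wasf genes and 72.6% for Abi1 and Abi2.

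Cyfip2 was the member that differed most between the groups. Its level was 1.94, 2.71 and 2.94 CPM in WT (lowest, median and highest mouse) and 39.8, 57.8 and 71.0 CPM in mdx/mTR. Every mdx/mTR mouse lay above every WT mouse by a wide margin, and even the lowest WT library held 70 counts of Cyfip2, well over a floor of 3. The mean went from 2.59 ± 0.409 to 56.6 ± 10.98 CPM (SD, n = 6 each), 21.9-fold higher, with a log2 fold change of 4.45 ± 0.15 (SE, edgeR). Of the 13937 genes tested, 11 (0.0789%) had a rise at least that large, Cyfip2 included, which is how the gene came to be chosen. The authors' deposited table gives 4.27 for it. Among the mdx/mTR mice, replicate 3 was highest and replicate 1 lowest.

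Cyfip1, the other paralog, lay close to its WT level in most mdx/mTR mice. It stood at 42.0, 46.7 and 47.8 CPM in WT (lowest, median, highest) and at 43.7, 47.3 and 62.3 CPM in mdx/mTR. The groups overlapped, and the highest mouse was mdx/mTR replicate 5. The log2 fold change was 0.13 ± 0.08 (SE), and 0.05 without that mouse. Cyfip1 overlaps the 3′ end of Nipa2 on the opposite strand, with 1316 exonic bases in common in GENCODE M21. Strand handling of the counts is not given in the sources used here. Nipa2 fell slightly, with a log2 fold change of -0.21 ± 0.06 (edgeR adjusted p 0.014), a call that was lost with scaling by library totals (adjusted p 0.431).

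**Figure D1:**
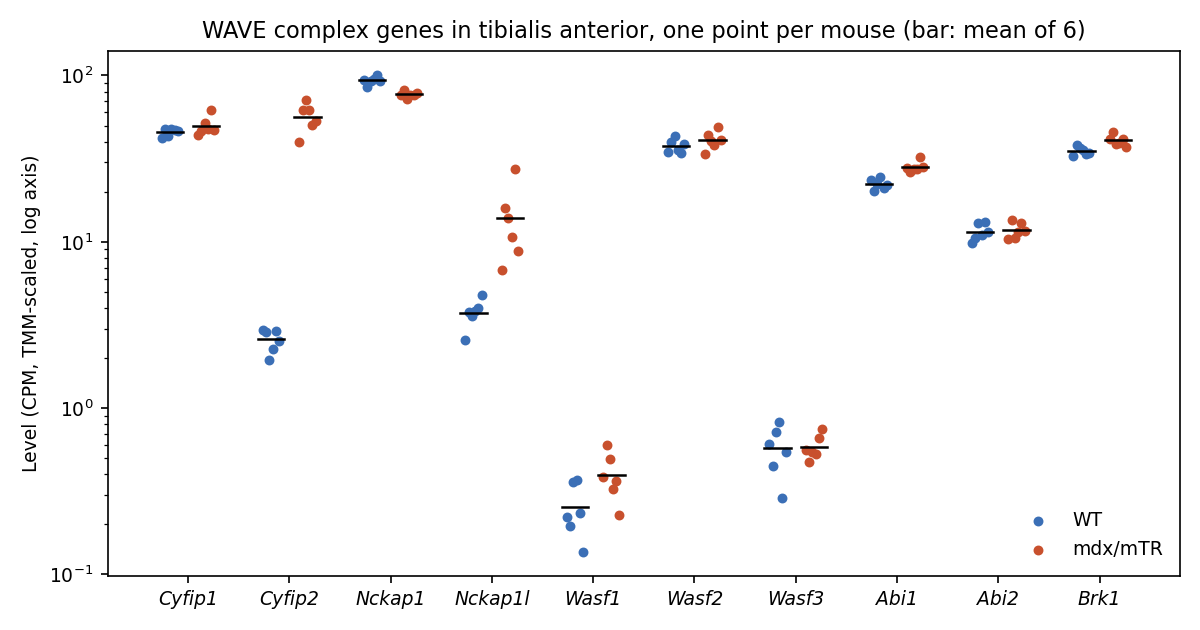
Levels of the 10 WAVE complex genes (CPM, log axis) in each mouse, WT in blue and mdx/mTR in orange, with a bar at the mean of 6 mice. The groups are far apart for Cyfip2, with 39.8 CPM in the lowest mdx/mTR mouse and 2.94 CPM in the highest WT mouse, and they lie close together for most other members.

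At the Nckap1 position, which joins the Cyfip subunit to the Abi and Wasf side of the complex, the paralogs differed in direction. Nckap1, the broadly expressed form, stood at 85.4, 93.4 and 101 CPM in WT and at 71.99, 76.4 and 82.1 CPM in mdx/mTR (lowest, median, highest). All mdx/mTR mice were lower than all WT mice. The log2 fold change was -0.28 ± 0.05 (SE), or 17.7% below WT by the means.

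Nckap1l, the blood cell form, stood at 2.56, 3.81 and 4.79 CPM in WT and at 6.76, 12.3 and 27.4 CPM in mdx/mTR. The groups did not overlap either, and all mdx/mTR mice were higher. Its log2 fold change was 1.88 ± 0.29 (SE), and 1.57 without mdx/mTR replicate 5, the highest mouse. It had the highest coefficient of variation of the 10 members within mdx/mTR, 53.2%, and Nckap1 the lowest, 4.31%.

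Among the Wasf genes, which carry the tail that activates the Arp2/3 complex, Wasf2 was by far the most abundant. Wasf2 stood at 34.1, 37.2 and 43.4 CPM in WT and at 33.9, 40.5 and 49.2 CPM in mdx/mTR, with a log2 fold change of 0.12 ± 0.08 (SE). The groups overlapped over most of their range. Wasf1 was near the limit of the data, with 5 to 14 counts per WT library and 14 to 39 per mdx/mTR library. Its levels were 0.137, 0.229 and 0.371 CPM in WT and 0.229, 0.373 and 0.599 CPM in mdx/mTR, and its log2 fold change was 0.64 ± 0.29 (SE). Only 2 WT libraries but 5 mdx/mTR libraries reached 0.250 CPM, the level the filter on low counts looks for, so Wasf1 was kept mainly through mdx/mTR. Wasf3 had 11 to 31 counts per WT library and 20 to 46 per mdx/mTR library, with means of 0.573 ± 0.192 and 0.588 ± 0.101 CPM (SD over 6 mice each). Its groups overlapped fully.

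The Abi subunits link the Wasf protein to the rest of the complex and bind the Abl kinases. Abi1 stood at 20.1, 22.1 and 24.7 CPM in WT and at 26.3, 27.6 and 32.2 CPM in mdx/mTR. All mdx/mTR mice lay above all WT mice, with a log2 fold change of 0.34 ± 0.06 (SE). Abi1 shares 194 exonic bases with Pdss1 on the opposite strand, which did not pass (-0.20 ± 0.10, edgeR adjusted p 0.113). Abi2 stood at 9.84, 11.2 and 13.2 CPM in WT and at 10.4, 11.5 and 13.5 CPM in mdx/mTR, with full overlap and a log2 fold change of 0.03 ± 0.09 (SE). The span of Abi2 overlaps that of Raph1, the lamellipodin gene, on the opposite strand, with no exonic base in common in GENCODE M21. Raph1 rose from 40.1 ± 1.95 to 53.6 ± 9.34 CPM (SD, n = 6 each; a log2 fold change of 0.42 ± 0.09 SE with an edgeR adjusted p of 0.0022).

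Brk1, the smallest subunit, has no paralog in the list. It stood at 32.6, 34.9 and 38.1 CPM in WT and at 37.1, 40.5 and 45.7 CPM in mdx/mTR. A single WT mouse, replicate 2, exceeded the lowest mdx/mTR mouse. The log2 fold change was 0.21 ± 0.06 (SE).

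At an edgeR adjusted p below 0.05 over all tested genes, 5 of the 10 members were called, against 48.3% of all genes tested. Of these, 4 were higher (Cyfip2, Nckap1l, Abi1 and Brk1; 25.0% of all genes were called higher) and 1, Nckap1, was lower (23.4% of all genes), while Cyfip1, Wasf1, Wasf2, Wasf3 and Abi2 were not called. The groups did not overlap for 4 of the 10 members, against 25.2% of all genes tested. Since the list was drawn up from this comparison, nothing is read from these counts. The median log2 fold change of the members was 0.17, against 0.01 over all tested genes. Scaling by library totals raises the median of all genes by 0.16. Under that scaling 7 members were higher and 0 lower: Cyfip1 (0.29), Wasf2 (0.28) and Wasf1 (0.80) were also called, and Nckap1 (-0.12) was not. The size of Cyfip2 (4.61 with library totals) and of Nckap1l (2.07) changed little.

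**Figure D2:**
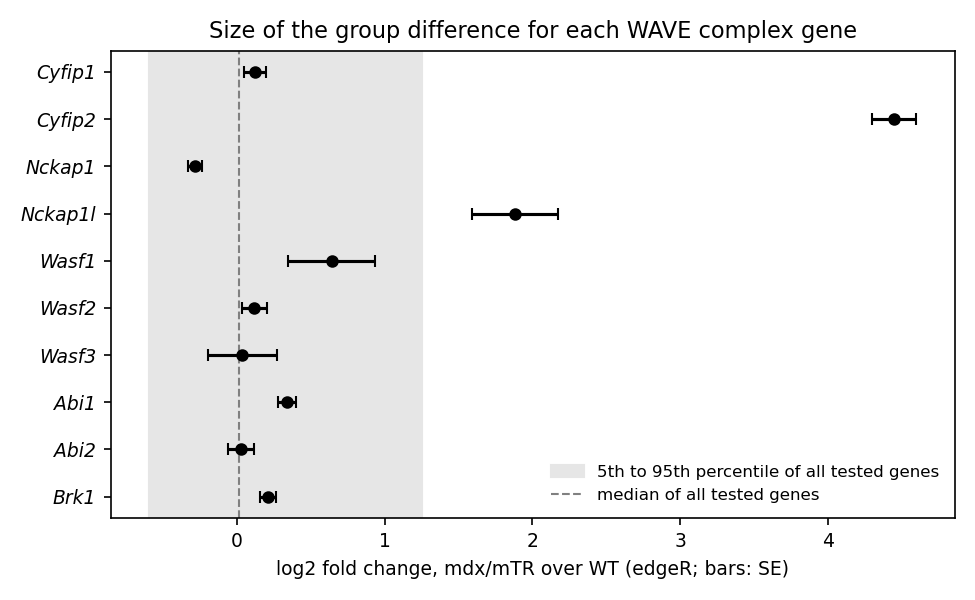
Log2 fold change of each WAVE complex gene, mdx/mTR against WT, as estimated by edgeR with the standard error as a bar; the grey band spans the 5th to 95th percentile of all tested genes (-0.59 to 1.25) and the dashed line is their median. Cyfip2 and Nckap1l lie outside the band and the other 8 members inside it.

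To compare the paralogs with each other, levels were divided by the length of the longest coding transcript (CPM per kb). In WT, Cyfip1 was 14.7 to 23.1 times as abundant per kb as Cyfip2, with a median of 17.97. In mdx/mTR, Cyfip2 was 0.786 to 1.33 times as abundant per kb as Cyfip1, with a median of 1.18. The muscle thus went from almost only Cyfip1 to similar levels of both paralogs. The share of Cyfip2 in the pair was 4.15%, 4.41%, 5.02%, 5.54%, 5.69% and 6.36% in the WT mice from lowest to highest. It was 44.0%, 46.8%, 52.2%, 56.0%, 56.4% and 57.1% in the mdx/mTR mice. The mean share went from 5.20% ± 0.831 to 52.1% ± 5.51 (SD, n = 6 each), a difference of 46.9 percentage points. With the median length of the coding transcripts in place of the longest, the difference was 39.2 points.

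The Nckap1 pair shifted in the same sense on a smaller scale. Nckap1l made up 3.77% ± 0.724 of the pair per kb in WT mice (SD, n = 6) against 14.6% ± 6.38 in the mdx/mTR mice (n = 6). The lowest mdx/mTR mouse (7.98%) lay above the highest WT mouse (4.78%), and replicate 5 reached 25.8%. Nckap1 remained the main form in every mouse. Wasf2 made up 97.0% ± 0.907 of the Wasf genes in WT and 96.5% ± 0.478 in mdx/mTR. Abi2 made up 23.4% ± 2.76 of its pair in WT and 19.7% ± 1.82 in mdx/mTR, and for both the Wasf and the Abi shares the groups overlapped. The level of the Abi2 share rests on the length chosen. The longest coding transcript of Abi2 has 5768 bases and the median one 1664.5, against 3403 and 3023 for Abi1.

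Summed over the paralogs at each position, the Cyfip position stood out in size. It went from 7.48 ± 0.380 CPM per kb in WT to 16.2 ± 2.02 CPM per kb in mdx/mTR (SD, n = 6 each), 2.17-fold by the means. The lowest mdx/mTR mouse had 12.8 and the highest WT mouse 7.79 CPM per kb. The ratio was 0.931 for the Nckap1 position, 1.09 for the Wasf position, 1.21 for the Abi position and 1.16 for Brk1. The sum thus changed far more at the Cyfip position than at any other, and Cyfip2 made up most of that excess. Because Cyfip2 was chosen for its rise, this too is a description.

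**Figure D3:**
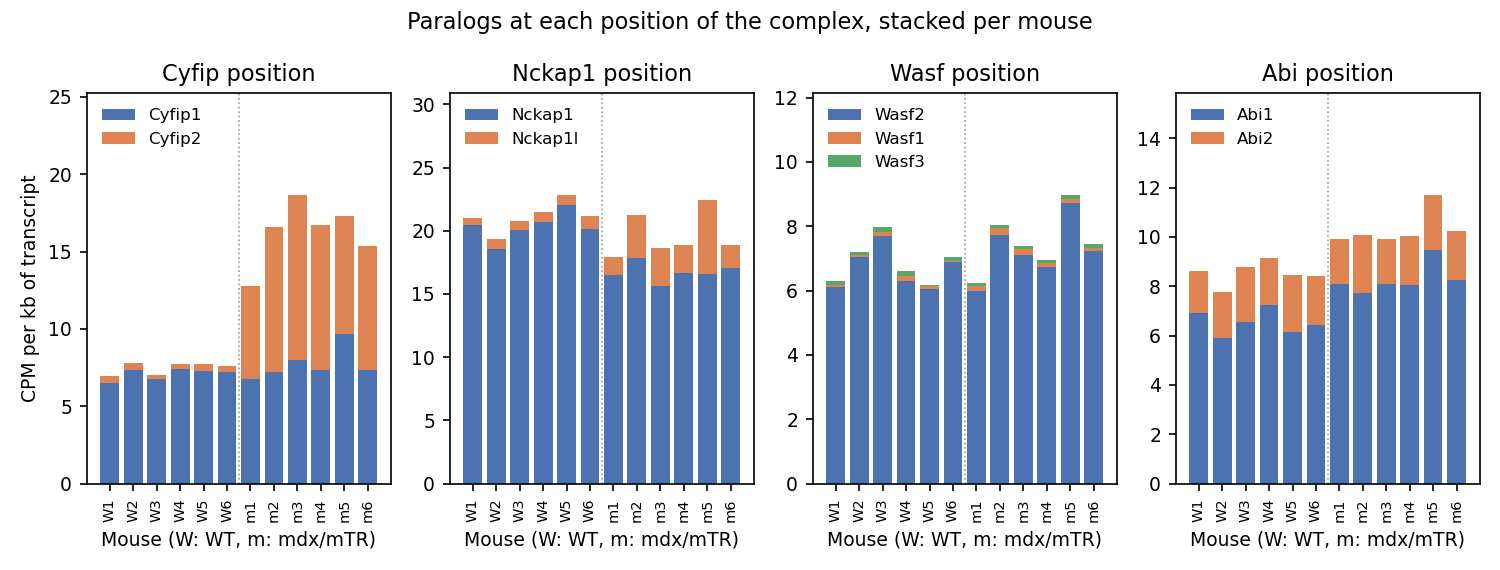
CPM per kb of transcript for the paralogs at the Cyfip, Nckap1, Wasf and Abi positions, stacked for each of 6 WT (W1 to W6) and 6 mdx/mTR mice (m1 to m6). Cyfip2 is a thin layer in WT, 5.20% of the pair on average, and 52.1% in mdx/mTR, while Wasf2 fills its position in both groups.

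Within WT the order of the levels per kb was Brk1 (32.1 CPM per kb), Nckap1 (20.3), Cyfip1 (7.09), Wasf2 (6.68), Abi1 (6.54), Abi2 (1.99), Nckap1l (0.795), Cyfip2 (0.388), Wasf3 (0.110) and Wasf1 (0.0933). Cyfip1, Wasf2 and Abi1 overlapped in their spread over mice, as did Wasf3 and Wasf1. In mdx/mTR, Cyfip2 (8.49 ± 1.65) moved up beside Abi1 (8.28 ± 0.603), Cyfip1 (7.74 ± 1.03) and Wasf2 (7.25 ± 0.921). By this length these 4 did not differ beyond their spread. The order of genes in both groups holds for the longest coding transcript only. The median coding length is 2236 bases for Wasf2, against 5642 for the longest. For Cyfip1 it is 4178 against 6440 bases, and for Cyfip2 6298 against 6659 bases. Nckap1l (2.94 ± 1.56) and Abi2 (2.03 ± 0.218) also overlapped there.

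Markers of other cells that muscle can hold moved with the groups. Over all genes tested, 25.0% were called higher and 23.4% lower. All 6 general blood cell markers rose, from a summed level of 24.6 to 41.3 CPM in WT to 58.3 to 190.7 CPM in mdx/mTR. All 8 macrophage markers rose too, from sums of 88.1 to 152 CPM to sums of 258 to 722 CPM. The 6 mdx/mTR mice fell in the same order by Nckap1l, by the blood cell sum and by the macrophage sum, from replicate 1 at the bottom to replicate 5 at the top. Per 100 CPM of the blood cell markers, Nckap1l was 11.3 ± 1.104 CPM in WT (range 10.2 to 13.3) and 13.8 ± 1.54 CPM in mdx/mTR (range 11.6 to 15.5; SD, n = 6 each). The groups overlapped on that scale, with the higher mean in mdx/mTR. The part of blood cells in the Nckap1l values was not tested.

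Cyfip2 did not follow that order. Of the 9 markers of myogenic and fusing cells, 7 rose and 1, the cadherin gene Cdh15, fell. They include Myog (a log2 fold change of 2.46 ± 0.28 SE with an edgeR adjusted p of 1.7e-05). The fusion genes Mymk and Mymx are listed as Tmem8c (means of 0.0592 and 10.2 CPM in WT and mdx/mTR) and Gm7325 (0.0452 and 2.17 CPM). Their WT levels were near the floor of 3 counts, at most 0.167 and 0.112 CPM. Both lay below the 0.250 CPM of the filter in every WT library. They were thus kept only through mdx/mTR, and their place among the 7 is no separate support. The sum of the 9 markers was 59.2 to 77.0 CPM in WT and 133 to 543 CPM in mdx/mTR. The highest sum was in replicate 5, in which Cyfip2 was the second lowest of the mdx/mTR mice (50.6 CPM). The highest Cyfip2 (71.0 CPM) was in replicate 3, where the myogenic sum was 156 CPM. Per 100 CPM of the myogenic markers, Cyfip2 was 2.74 to 4.86 CPM in WT and 9.32 to 45.5 CPM in mdx/mTR, without overlap. The make-up of the sum differed between the groups, which limits this ratio. The myosin genes Myh3 and Myh8 had means of 4.45 and 5.98 CPM in WT and of 74.4 and 69.2 CPM in mdx/mTR. Cdh15 had means of 29.6 and 22.9 CPM in WT and mdx/mTR, and Myod1 had 19.5 and 37.1 CPM. Of the 5 Schwann cell and nerve markers tested, 4 fell and 0 rose. Snap25, Syt1 and Nefl, markers of neurons, were at or near 0 in every library. All 5 fibroblast markers rose, and 3 of 5 endothelial markers fell. Cd4, a lymphocyte marker also found on other cells, had means of 0.231 and 1.68 CPM in WT and mdx/mTR. The part of any of these cells in the Cyfip2 values was not tested.

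**Figure D4:**
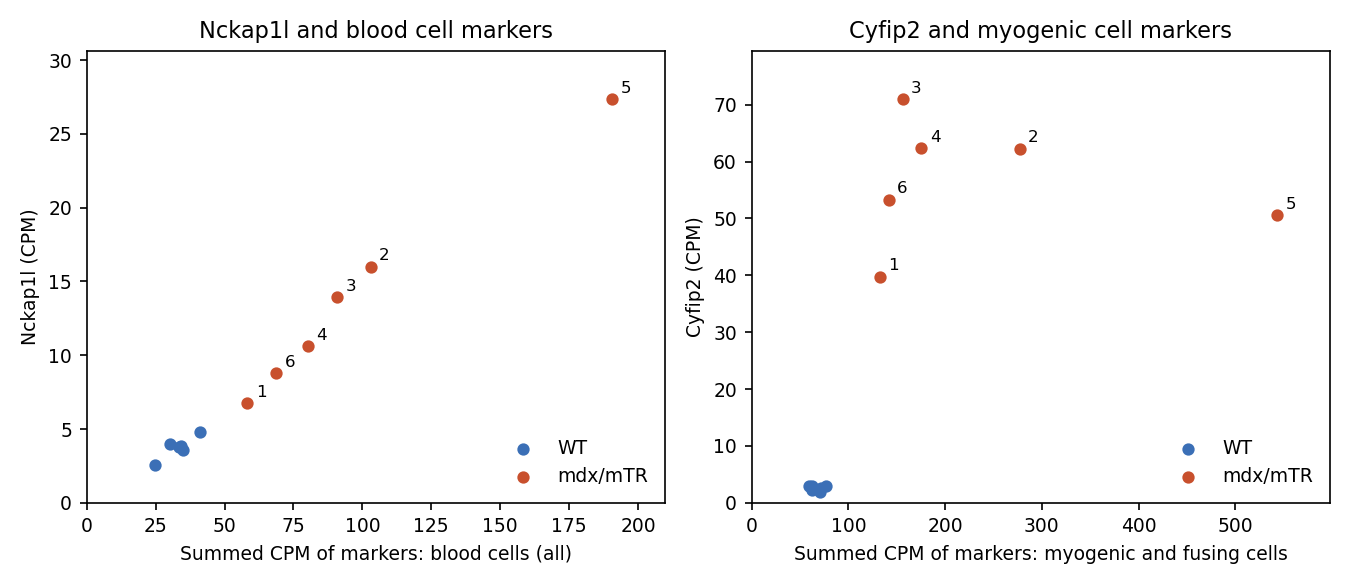
Left, Nckap1l (CPM) against the summed CPM of 6 blood cell markers; right, Cyfip2 (CPM) against the summed CPM of 9 myogenic markers; one point per mouse, with mdx/mTR mice numbered by replicate. Nckap1l and the blood sum put the mdx/mTR mice in one order up to replicate 5 (27.4 CPM), whereas Cyfip2 peaks in replicate 3 (71.0 CPM).

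The Cyfip2 locus on chromosome 11 (46193850 to 46312859, minus strand, GENCODE M21 on GRCm38) contains another gene, Fndc9, a fibronectin type III domain gene on the opposite strand that shares no exonic base with Cyfip2. Fndc9 had 1 to 4 counts per WT library and 18 to 55 per mdx/mTR library. Its mean level was 0.0725 ± 0.0279 CPM over the WT mice and 0.729 ± 0.270 CPM over the mdx/mTR mice (SD, n = 6 each). Every WT library lay below the 0.250 CPM that the filter on low counts looks for, so Fndc9 was kept only through mdx/mTR, and no test is given for it. Fndc9 was chosen by the rule that names genes overlapping a member. With 2281 to 4058 counts of Cyfip2 in mdx/mTR, the reads listed under Fndc9 are few beside those of Cyfip2. Without known strand handling, intronic reads of the one cannot be told apart from reads of the other.

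Of the nearest protein-coding genes in the table, Adam19, a metalloprotease gene, rose from 12.7 ± 1.89 to 32.6 ± 8.83 CPM (a log2 fold change of 1.36 ± 0.16 SE with an edgeR adjusted p of 2.0e-05). Nipal4, which lies between Adam19 and Cyfip2, had at most 4 counts in any library. On the other side, Fam71b had 0 to 3 counts and was not tested.

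A start site of Cyfip2 and that of Fndc9 are shown because the levels of both genes of the locus were higher in mdx/mTR. Each stretch runs from 250 bases before to 50 bases after a RefSeq start site on GRCm38.p6, 5′ to 3′ on the strand of the gene. Capitals mark matches to the E-box CANNTG, the motif bound by myogenic factors such as MyoD and myogenin. The Cyfip2 stretch is chr11:46312309-46312608 (minus strand) and the Fndc9 stretch is chr11:46235307-46235606 (plus strand). The Cyfip2 stretch lies within the gene span, since the outermost Cyfip2 transcript starts further upstream, at 46312859. Which start the muscle used was not tested.
Cyfip2: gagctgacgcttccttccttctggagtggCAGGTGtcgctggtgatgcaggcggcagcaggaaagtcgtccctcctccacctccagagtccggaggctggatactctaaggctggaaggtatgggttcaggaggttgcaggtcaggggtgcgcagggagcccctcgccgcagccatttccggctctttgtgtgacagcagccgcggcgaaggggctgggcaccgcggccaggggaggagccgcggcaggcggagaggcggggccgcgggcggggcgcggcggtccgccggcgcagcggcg
Fndc9: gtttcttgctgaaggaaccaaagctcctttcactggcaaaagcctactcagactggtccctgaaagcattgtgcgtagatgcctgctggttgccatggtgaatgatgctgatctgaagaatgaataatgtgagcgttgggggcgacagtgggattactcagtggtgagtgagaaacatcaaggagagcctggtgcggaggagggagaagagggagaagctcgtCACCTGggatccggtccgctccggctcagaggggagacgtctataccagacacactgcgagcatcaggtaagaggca
Each stretch held 1 match to CANNTG, and in each it was of the form CAGGTG, counted on either strand and contained in CANNTG. Of 32851 RefSeq start sites of this length, 72.3% held CANNTG and 20.2% held CAGGTG. RefSeq stretches were found for 6 of the 10 members. CANNTG occurred in 3 of these (Cyfip2, Wasf1 and Wasf3) and CAGGTG in 2 (Cyfip2 and Wasf3). These matches describe the letters of the windows only. The Cyfip2 window was rich in G and C (70.7%), against 53.7% for Fndc9.

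The genes around the complex were taken from 5 lists. On the list of Rac GTPases, their activators and related genes, 15 of 22 passed an edgeR adjusted p of 0.05, against 48.3% of all genes. Of these, 11 were higher and 4 lower. With library totals 12 were higher and 2 lower. The list also holds the Rac effector gene Baiap2, its relative Baiap2l1 and the Abl kinase genes Abl1 and Abl2. All of these passed, Baiap2 and Baiap2l1 higher and Abl1 and Abl2 lower. The exchange factor genes Tiam1 and Tiam2, whose products activate Rac, went in opposite directions. Tiam1 fell from 11.95 ± 1.01 to 3.44 ± 1.02 CPM (a log2 fold change of -1.80 ± 0.15 SE with an edgeR adjusted p of 1.5e-06). Tiam2 rose from 6.29 ± 0.516 to 14.4 ± 2.38 CPM (1.19 ± 0.11, adjusted p 2.3e-06). Baiap2l1, a relative of the Rac effector Baiap2 that bends membranes, rose from 0.948 ± 0.254 to 3.30 ± 0.728 CPM (1.80 ± 0.20, adjusted p 1.2e-05). In all 3 the groups did not overlap. Rac1 itself, the broadly expressed Rac, did not pass (-0.10 ± 0.05, adjusted p 0.107).

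Downstream, 7 of 10 genes of the Arp2/3 complex passed, 5 higher and 2 lower, against 48.3% of all genes. With library totals 7 were higher and 2 lower. Without WT replicate 1, mdx/mTR replicate 2 or mdx/mTR replicate 5, 3 were higher and 2 lower. Paralogs of the same subunit had unlike values. Arpc1b rose from 16.6 ± 1.73 to 31.8 ± 11.6 CPM (0.94 ± 0.18, edgeR adjusted p 9.7e-04), and Arpc1a rose less by value (0.12 ± 0.04, adjusted p 0.044). Actr3b fell from 16.8 ± 6.40 to 5.39 ± 1.48 CPM (-1.64 ± 0.26, adjusted p 2.2e-04), and Actr3 rose (0.40 ± 0.10, adjusted p 0.0043). Arpc5l fell from 107 ± 7.17 to 85.7 ± 7.88 CPM (-0.32 ± 0.07, adjusted p 0.0014), and Arpc5 rose (0.62 ± 0.15, adjusted p 0.0036). Of these, Arpc1a, Actr3 and Arpc5 were named after their values were seen.

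Of the other factors that switch on the Arp2/3 complex, 13 of 14 were found in the table. Of these, 6 passed, 4 higher and 2 lower (5 and 1 with library totals), against 48.3% of all genes. Cttn, the cortactin gene, rose from 26.4 ± 1.49 to 36.5 ± 4.41 CPM (0.47 ± 0.07, edgeR adjusted p 2.0e-04), and its blood cell relative Hcls1 rose from 3.68 ± 0.821 to 8.86 ± 3.18 CPM (1.27 ± 0.21, adjusted p 3.1e-04). Wipf1, which binds the WASP proteins, rose too (0.50 ± 0.11, adjusted p 0.0020). Wasl, the broadly expressed WASP gene, did not pass (-0.04 ± 0.05, adjusted p 0.486), and the WASH genes Wash1, Fam21 and Ccdc53 did not pass either.

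Among regulators of actin filaments, 15 of 23 tested passed, 13 higher and 2 lower, against 48.3% of all genes. With library totals 18 were higher and 0 lower. Enah, an Ena/VASP elongation factor gene, rose from 55.4 ± 3.34 to 80.8 ± 9.94 CPM (0.54 ± 0.07, edgeR adjusted p 6.2e-05). Coro1a and Gmfg, blood cell forms of coronin and of glia maturation factor, rose by 1.56 ± 0.29 and 1.18 ± 0.25 (adjusted p 6.7e-04 and 0.0014). Gmfg was low, with means of 0.314 and 0.714 CPM in WT and mdx/mTR and 0.222 CPM in the lowest WT mouse. Coro1a is also one of the 6 blood cell markers above. Some other genes of blood cell forms, picked after their values were seen, also rose. They were Rac2 (1.57 ± 0.28), Vav1 (2.33 ± 0.34), Dock2 (1.52 ± 0.29) and Was (1.34 ± 0.29), with edgeR adjusted p from 1.2e-04 to 0.0021. Because of that picking, no common size is read from them. Arhgdib, another of the 6 blood cell markers, rose by only 0.41 ± 0.14 (adjusted p 0.024), with overlapping groups. The part of blood cells in these values was not tested.

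Of the Cyfip and FMRP partners and Abi3, a list of 6 genes, 1 passed (2 with library totals), against 48.3% of all genes. It was lower: Fxr2, a relative of FMRP, fell from 161 ± 7.53 to 128 ± 9.32 CPM (-0.33 ± 0.05, edgeR adjusted p 2.9e-04). Fmr1, the gene of FMRP, had 15.2 ± 1.60 and 16.9 ± 1.83 CPM (0.15 ± 0.08, adjusted p 0.142). Fmr1 passed with library totals (0.31, adjusted p 0.0206). Abi3, the remaining Abi paralog, had 15.1 ± 1.01 and 14.6 ± 1.26 CPM (-0.04 ± 0.07, adjusted p 0.637). The values were -0.10 for Fxr1, -0.07 for Eif4e, whose product Cyfip1 can hold inactive, and -0.07 for Nckipsd, a WAVE-binding protein gene. With library totals the signs of Abi3, Fxr1, Eif4e and Nckipsd were positive.

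**Figure D5:**
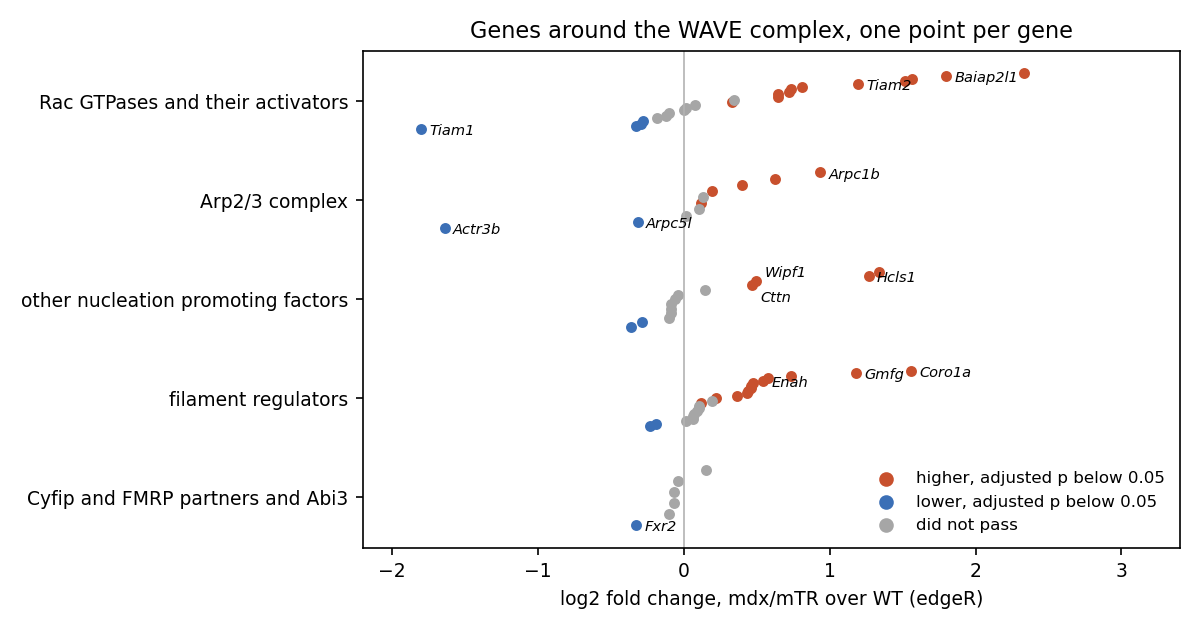
Log2 fold changes (edgeR, mdx/mTR over WT) of the genes in 5 lists around the WAVE complex, one point per gene, orange for higher, blue for lower and grey for not passing an adjusted p of 0.05. Tiam1 (-1.80) and Actr3b (-1.64) are the lowest points, and most called genes of the filament regulators lie to the right.

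Within the groups, the genes whose levels followed Cyfip2 most closely over the 12 mice, after centring each group, included Ipmk, Abhd17c, Trib2 and Fuca2. Pearson r of log2(CPM + 0.5) ranged from 0.8345 to 0.857 for these, as the highest of 9508 genes compared, so the values are given as a measure of likeness only. Their own group differences were not like that of Cyfip2. Ipmk, an inositol phosphate kinase gene, fell (-0.49 ± 0.05, edgeR adjusted p 1.2e-05), and Trib2 and Fuca2 did not pass (0.09 ± 0.12 and -0.01 ± 0.06, adjusted p 0.558 and 0.945).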

How the data were processed

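The authors deposited whole-number counts per gene symbol with 1 column per mouse, and all sample columns matched a sample. Per the submitters' processing notes, STAR, FastQC, DESeq2 and mm10 were used; counter, annotation and strand handling are not given in the sources used here. The authors' deposited table gives the mean normalized signal of each gene, its log2 fold change and the error of that, a score from the test, and raw and adjusted p-values; only the log2 fold change was printed.

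Counts were tested with edgeR 4.0.16 in R 4.3.3: filterByExpr (13937 genes), TMM, group as the only term, quasi-likelihood test, Benjamini-Hochberg adjustment over all genes, threshold 0.05. A standard error is the log2 fold change divided by the square root of F. Replicates are labelled as separate mice. Every replicate pair differed by more than counting noise. A floor of 3 counts was 0.0460 to 0.0837 CPM, for counting error only. Lengths and exons came from GENCODE M21 transcripts, start sites from RefSeq (GRCm38.p6). The procedure was tested on simulated counts.

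Members, pathway lists and marker lists were chosen with earlier results of these data known. The genes named are the members, the 3 smallest p-values of each pathway list (all of a list of 6), genes overlapping a member and the 5 most like Cyfip2 with a mean of at least 5 CPM; others were named after their values were seen. Some genes that fall under these rules are not reported here. Older symbols were matched through RefSeq synonyms, and 1 listed gene (Kiaa0196) was not matched. Alternatives were other scalings, filters and lengths, DESeq2 1.42.0, limma-voom (limma 3.58.1), a replicate block and each mouse left out. Python 3.11.15 was used.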

Additional observations from a re-analysis of the deposited data

Results flagged for a closer look

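A mouse was looked at again where the gap to the nearest other mouse of its group, as a share of that group's full spread, passed Dixon's critical value for 6 samples. Chance gives about 1 in 20, or 1.6 of the 32 groups of values checked, and 2 passed. For Abi1, mdx/mTR replicate 5 had 32.2 CPM while the remaining mdx/mTR mice had 26.3 to 28.1 CPM (gap share 0.701). For the share of Abi2 in the Abi pair, mdx/mTR replicate 2 had 23.2% while the remaining mice had 18.2% to 19.7% (gap share 0.701).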

How the results depend on the processing

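Under the 20 alternatives, the log2 fold change of Cyfip2 ran from 4.37 to 4.61 and that of Nckap1l from 1.57 to 2.07. The counts of called members ran from 5 to 7 and those of all genes from 6076 to 7156. Leaving out each mouse gave 5 to 6 members, 4.37 to 4.53 for Cyfip2 and 45.9 to 48.5 points for its share. The Cyfip2 share moved to 39.2 points with the median transcript length. With library totals the partner list gave 2 calls in place of 1. With library totals 78.2% of all calls were higher, against 51.6% with TMM. Signs turned for members near 0. Leaving out each mouse gave -0.101 to 0.170 for Wasf3 (-0.0238 without WT replicate 2, -0.0494 without mdx/mTR replicate 6), -0.0172 to 0.0700 for Abi2 (-0.0153 without WT replicate 1, -0.0056 without mdx/mTR replicate 5) and -0.222 to 0.0791 points for the Wasf3 share. The call of Nckap1 was lost with library totals, which add a shift of all genes. Wasf1, with 5 to 39 counts, was also called without mdx/mTR replicate 6 (0.77); depth limits Wasf1 and Wasf3.

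Same-numbered mice had correlated deviations over 0.1 in 2 of 6 pairs (0.354 for number 1 and 0.285 for number 2). Of 12 libraries, 4 correlated best with their own number. These values do not settle whether mice sharing a number belong together. The labels do not name pairs, so such mice were not treated as pairs. Adding a replicate block left 6420 genes and 5 members called, with 4.43 for Cyfip2.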
